A study of Mus musculus with 6 samples.

Results

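The genes described here are 47 genes of mitosis and of the G2 to M transition, taken as a fixed list of symbols and found in the gene table of the series, in which all 47 occurred on 1 row each among 52550 genes. All 47 passed the filter on low counts, so none is missing from the tests. RNA was sequenced from mouse bone marrow-derived macrophages of strain C57BL/6, grown from marrow cells with 25 ng/ml M-CSF (macrophage colony-stimulating factor, the growth factor that keeps these cells alive and dividing) for 7 days. The AC CM group (3 samples) then received medium conditioned by apoptotic chondrocytes, and the C CM group (3 samples) medium conditioned by normal chondrocytes. Chondrocytes are the cells of cartilage. The sources used here do not give the length of the exposure, the dose of medium or the number, sex or age of the animals, and do not say that samples of a group came from separate cultures, so p-values measure the spread between these samples only.

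A dividing cell enters mitosis when Cdk1, bound to A and B cyclins, is released from inhibition by CDC25 phosphatases. Aurora and Polo-like kinases then build the spindle, kinetochores attach chromosomes to it, and the spindle checkpoint holds back the anaphase-promoting complex until all are attached. That complex, with its activator Cdc20, marks cyclin B and securin for destruction, which frees separase and starts anaphase. Genes of this programme are transcribed late in the cycle, under the MuvB complex, B-Myb and Foxm1, and macrophages grown in M-CSF are known to divide in culture.

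Markers of the labelled cell type were abundant: 10 macrophage markers summed to 19945 to 20881 CPM in AC CM libraries and 21066 to 23121 CPM in C CM libraries. All 10 passed the filter on low counts, but so did all 10 liver markers, so the filter does not identify the cells. CPM is the count normalised for library size, with TMM scaling, and is not corrected for gene length. Library totals were 70802852 to 80105872 counts after AC CM and 65630784 to 68852308 counts after C CM. Liver transcripts set AC CM replicates 2 and 3 apart: Alb, the albumin gene, stood at 38.1, 469 and 971 CPM in AC CM replicates 1, 2 and 3, against 30.1, 1.32 and 0.254 CPM in C CM replicates 1, 2 and 3. Among the C CM libraries, replicate 2 was the highest for 35 of the 47 mitosis genes and replicate 1 the lowest for 30, and the SD was larger in C CM than in AC CM for 38. Of the 10 macrophage markers 3 were called lower and 1 higher (adjusted p under 0.05), 30% and 10% against 13.3% each way of all genes tested. Their median log2 fold change, AC CM over C CM, was -0.16. Among those called, Csf1r, the M-CSF receptor gene, fell by 0.72 (SE 0.06) on the log2 scale. Mertk fell by 0.40 (SE 0.07) and Mrc1 rose by 0.54 (SE 0.10). The adjusted p without both AC CM replicate 2 and replicate 3 was 0.0896 for Mertk and 0.118 for Mrc1.

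After AC CM, 13 of the 47 mitosis genes fell and 2 rose, and 32 did not pass (edgeR's quasi-likelihood test, Benjamini-Hochberg adjusted p under 0.05 over all 17863 genes tested). The deepest fall was that of Cenpa, the centromeric histone, which was 3.52-fold lower, and it was the only one of the 13 past 2-fold. Next came Cdc20, Plk1, Ccnb2 and Ube2c, between 1.70-fold and 1.83-fold lower. Mad2l1 and Smc2 were the genes that rose, by 1.37-fold and 1.33-fold. Mki67 and Top2a, which are widely used as proliferation markers, did not pass. Their log2 fold changes, AC CM over C CM, were -0.03 (SE 0.11) and -0.01 (SE 0.11). These 2 genes do not stand for all such markers. Of 49 DNA replication genes 36 were called higher, 73.5% against 13.3% of all genes tested, among them Pcna (0.85, SE 0.08).

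Of all genes tested, 13.3% were called lower and 13.3% higher, against 27.7% and 4.26% of the mitosis genes. The median log2 fold change was -0.22 for the 47 genes, with the middle of the distribution between -0.41 and -0.02 (quartiles), and -0.00 over all genes tested, with quartiles of -0.32 and 0.28. In 36 of the 47 genes, 76.6%, the log2 fold change was below 0, against 50.4% of all genes. Groups did not overlap for 21 of the genes: all AC CM libraries lay below all C CM libraries for 17, 36.2% against 22.1% of all genes, and above them for 4, 8.51% against 22.6%. The summed level of the 47 genes was 1220 to 1315 CPM in AC CM libraries and 1250 to 1541 CPM in C CM libraries, so the sums overlapped. In bulk RNA, fewer cells in mitosis and less RNA per such cell cannot be told apart.

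**Figure D1:**
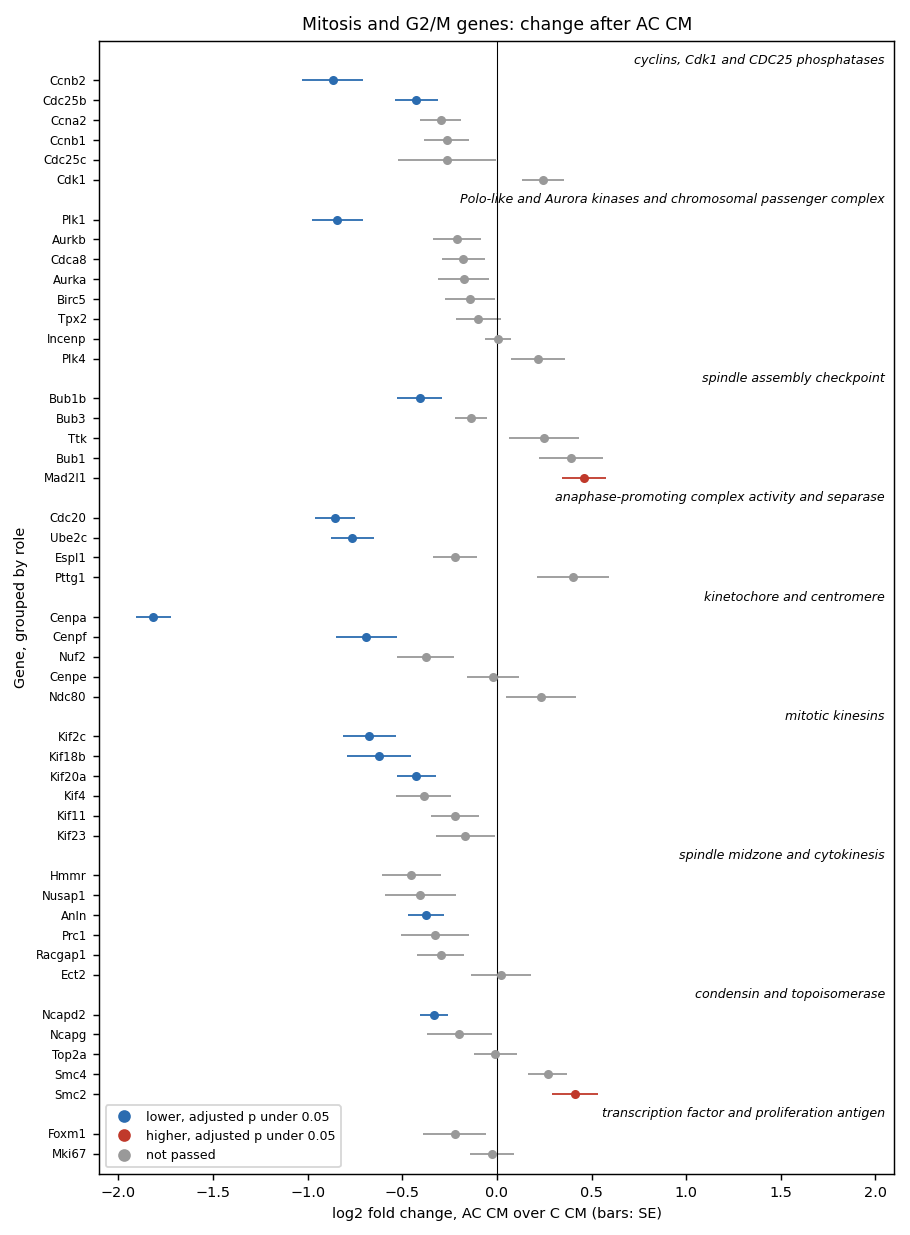
Log2 fold change, AC CM over C CM, of the 47 mitosis and G2/M genes by role, with bars of 1 SE and colours for genes called lower (13), higher (2) or neither (32). Cenpa stands alone at -1.81, and most of the genes lie between -0.5 and 0.5.

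The promoters of the genes that fell furthest, and of the riser Smc2, are shown because mitotic genes are known to share short promoter motifs. These are the cell cycle genes homology region (CHR), read by the MuvB complex and searched here as TTTGAA, and the CCAAT box, read by NF-Y. Each window runs from 250 bases before to 50 bases after the annotated start (RefSeq, GRCm38.p6), 5′ to 3′ on the strand of the gene. Capitals mark TTTGAA and CCAAT on either strand, so that TTCAAA and ATTGG are capitals too, and in Ube2c a pair of CCAAT motifs on opposite strands overlaps. The windows lie at chr5:30666636-30666935, plus strand (Cenpa), chr4:118437294-118437593, minus strand (Cdc20), chr7:122159185-122159484, plus strand (Plk1), chr9:70421505-70421804, minus strand (Ccnb2), chr2:164769679-164769978, plus strand (Ube2c) and chr4:52438971-52439270, plus strand (Smc2).
Cenpa: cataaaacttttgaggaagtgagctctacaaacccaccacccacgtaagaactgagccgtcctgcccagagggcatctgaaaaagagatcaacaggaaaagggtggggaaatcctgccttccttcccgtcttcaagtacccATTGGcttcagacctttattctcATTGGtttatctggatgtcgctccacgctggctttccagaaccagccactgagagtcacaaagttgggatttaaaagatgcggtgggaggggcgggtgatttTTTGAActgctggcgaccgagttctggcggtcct
Cdc20: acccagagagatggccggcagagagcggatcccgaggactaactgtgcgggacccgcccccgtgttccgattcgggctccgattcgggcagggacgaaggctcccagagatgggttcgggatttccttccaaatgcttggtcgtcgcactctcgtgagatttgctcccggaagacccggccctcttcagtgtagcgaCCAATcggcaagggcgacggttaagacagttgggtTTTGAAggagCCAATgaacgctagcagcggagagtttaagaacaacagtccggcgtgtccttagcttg
Plk1: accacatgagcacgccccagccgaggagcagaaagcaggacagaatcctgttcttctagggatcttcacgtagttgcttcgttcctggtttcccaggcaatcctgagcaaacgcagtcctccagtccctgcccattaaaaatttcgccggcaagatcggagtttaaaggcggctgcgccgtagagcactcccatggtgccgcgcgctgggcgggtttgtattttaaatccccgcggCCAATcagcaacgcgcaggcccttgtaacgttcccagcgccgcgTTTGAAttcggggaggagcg
Ccnb2: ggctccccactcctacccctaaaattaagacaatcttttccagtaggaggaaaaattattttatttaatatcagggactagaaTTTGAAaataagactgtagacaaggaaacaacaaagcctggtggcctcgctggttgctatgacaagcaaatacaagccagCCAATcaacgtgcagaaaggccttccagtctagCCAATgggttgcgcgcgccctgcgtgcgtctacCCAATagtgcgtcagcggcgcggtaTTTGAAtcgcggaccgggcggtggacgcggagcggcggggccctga
Ube2c: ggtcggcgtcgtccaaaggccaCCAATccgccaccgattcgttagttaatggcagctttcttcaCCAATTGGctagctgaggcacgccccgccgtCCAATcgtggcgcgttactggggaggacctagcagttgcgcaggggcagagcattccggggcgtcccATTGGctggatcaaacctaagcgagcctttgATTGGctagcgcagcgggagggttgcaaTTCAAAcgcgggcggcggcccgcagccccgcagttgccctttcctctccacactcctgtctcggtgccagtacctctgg
Smc2: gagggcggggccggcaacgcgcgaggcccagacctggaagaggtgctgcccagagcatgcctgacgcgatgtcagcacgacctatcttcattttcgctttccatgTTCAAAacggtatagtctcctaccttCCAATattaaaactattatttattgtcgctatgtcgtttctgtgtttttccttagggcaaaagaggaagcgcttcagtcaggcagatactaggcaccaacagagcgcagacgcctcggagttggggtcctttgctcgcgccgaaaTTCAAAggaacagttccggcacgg
All of these 6 windows hold both motifs. The window of the other riser, Mad2l1, is not shown and holds neither, so the windows shown do not stand for all called genes.

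RefSeq promoters were matched by symbol for 39 of the 47 genes. TTTGAA was found in 29 of the 39, 74.4%, against 12.3% of 11583 tested genes with a promoter in the same table and 15.0% of 40 DNA replication genes. CCAAT was found in 30 of the 39, 76.9%, against 38.5% of the tested genes and 62.5% of the replication genes. Both stood together in 26 of the 39, 66.7%, against 5.14% and 7.5%. TTTGAA lay within 50 bases of the start in 26 of the 29 promoters that hold it, 89.7%, against 24.1% of the 1420 tested genes that hold it. Of the genes that fell, 11 of 12 matched held TTTGAA, as did 17 of 25 matched genes that did not pass and 1 of the 2 that rose. The motif was therefore spread over the whole list, and whether its presence goes with the size of the change was not tested. A match of letters is not a measured binding site.

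**Figure D2:**
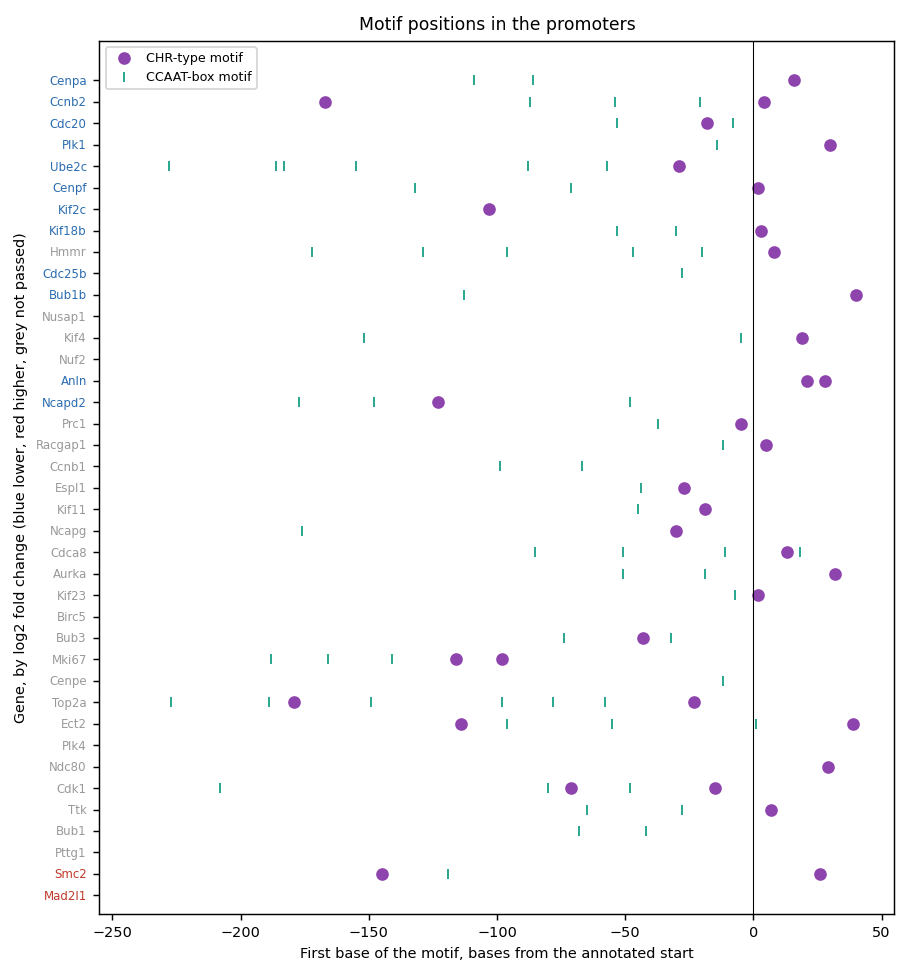
First base of each CHR-type motif (dots) and CCAAT-box motif (ticks) in the promoters of 39 mitosis genes, in bases from the annotated start, with genes ordered by log2 fold change from the lowest at the top. The dots gather around the start, where 26 of 29 promoters with the motif have it within 50 bases, and the ticks lie mostly before it.

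Kinetochore and centromere genes held the largest change. Cenpa (ENSMUSG00000029177.9, chromosome 5, 30666777 to 30674830, plus strand) encodes CENP-A, the histone H3 variant that marks centromeres and is made late in the cycle. It had 10.5, 12.1 and 11.6 CPM in AC CM replicates 1, 2 and 3, against 40.6, 40.2 and 39.8 CPM in C CM replicates 1, 2 and 3. Every AC CM library lay far below every C CM library, and the C CM libraries hardly differed from each other. The log2 fold change was -1.81 (SE 0.09, adjusted p = 4.18e-06, quasi-likelihood test), and Cenpa ranked 30th by p among 2371 genes called lower. No other gene of the table overlaps it. Leaving out any 1 library moved the log2 fold change to between -1.86 and -1.76, and dropping both AC CM replicate 2 and AC CM replicate 3 gave -1.94 (adjusted p = 0.0011).

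Cenpf, a large protein of the outer kinetochore that builds up in G2, had 14.6, 15.7 and 14.2 CPM in AC CM libraries, against 18.1, 28.5 and 25.0 CPM in C CM libraries. The AC CM libraries were alike and all lower, while the C CM libraries differed widely, with replicate 1 the lowest. It fell by 0.69 on the log2 scale (SE 0.16, adjusted p = 0.0123), with an adjusted p of at most 0.0492 when 1 library was left out, and of 0.165 without both AC CM replicate 2 and replicate 3. The log2 fold change was -0.38 (SE 0.15) for Nuf2, 0.23 (SE 0.19) for its partner Ndc80 in the microtubule-binding Ndc80 complex, and -0.02 (SE 0.14) for the kinesin Cenpe. None of these passed. Of the genes that load CENP-A onto centromeres, those named here were chosen after their values were seen. Of these, 2 did not pass: Hjurp, its chaperone, was at 0.24 (SE 0.17, adjusted p = 0.355) and Mis18a, a subunit of the Mis18 complex, at -0.16 (adjusted p = 0.253). Oip5, which encodes another Mis18 subunit, was called higher at 0.68, but its adjusted p was 0.0187 to 0.132 when 1 library was left out, above 0.05 in 5 of the 6 fits.

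Among 4 genes of anaphase-promoting complex activity, securin and separase, 2 fell and 2 did not pass. Cdc20 (chromosome 4, 118432901 to 118437352, minus strand), the activator that the spindle checkpoint holds in check, had 10.4, 11.9 and 11.3 CPM in AC CM libraries, against 20.4, 21 and 19.3 CPM in C CM libraries. Groups were tight and far apart. Its log2 fold change was -0.85 (SE 0.10, adjusted p = 4.8e-04), and -0.96 (adjusted p = 0.024) in the fit lacking both AC CM replicate 2 and AC CM replicate 3. The end of Cdc20 overlaps the more highly counted gene Elovl1 on the opposite strand by 53 bases, and Elovl1 was at 0.16 (adjusted p = 0.234).

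Ube2c, a ubiquitin-conjugating enzyme of the complex, had 11.9, 11.9 and 11.4 CPM in AC CM libraries, against 20.4, 21.9 and 17.4 CPM in C CM libraries. The AC CM values were nearly equal and all lay below the C CM values. Its log2 fold change was -0.76 (SE 0.12, adjusted p = 0.00148; 0.0766 without both AC CM replicate 2 and replicate 3). Securin and separase, which the complex acts through, did not pass. Pttg1, the securin gene, had 26.4, 24.2 and 23.2 CPM in AC CM libraries, against 21.3, 12.7 and 21.9 CPM in C CM libraries. C CM replicate 2 stood low, and the fitted value was 0.40 (SE 0.19, adjusted p = 0.160). Espl1, the separase gene, was at -0.22 (SE 0.12, adjusted p = 0.197).

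Of 6 genes for Cdk1, its cyclins and the CDC25 phosphatases, 2 fell and 4 did not pass. Ccnb2 (chromosome 9, 70407692 to 70421547, minus strand), which encodes cyclin B2, had 7.92, 9.10 and 7.35 CPM in AC CM libraries, against 12.9, 18.1 and 13.4 CPM in C CM libraries. The groups did not overlap, although C CM replicate 2 stood above its own group. The log2 fold change was -0.87 (SE 0.16, adjusted p = 0.00419; 0.0798 without both AC CM replicate 2 and replicate 3). Ccnb1, for the main mitotic cyclin B1, had 14.9, 17.8 and 14.3 CPM in AC CM libraries, against 18.1, 20.5 and 17.8 CPM in C CM libraries, at -0.27 (SE 0.12, adjusted p = 0.139). Its AC CM replicate 2 lay just below the lowest C CM library. Ccnb1 has 5 pseudogene transcripts at 94.4% to 99.2% identity in the annotation, so its count is uncertain, although the 3 with a row in the table held 0.0544% to 0.245% as many counts.

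Cdc25b, a phosphatase that activates Cdk1 before mitosis, had 12.1, 13.6 and 13.1 CPM in AC CM libraries, against 19.1, 17.1 and 15.9 CPM in C CM libraries. The log2 fold change was -0.43 (SE 0.11, adjusted p = 0.0235), and the adjusted p was 0.0258 to 0.0901 when 1 library was left out, above 0.05 without any of the AC CM replicates or without C CM replicate 2. Ccna2, for cyclin A2, was at -0.30 (SE 0.11, adjusted p = 0.0753), with its groups apart. Cdk1 itself leaned the other way without passing, with 29.9, 28.7 and 26.1 CPM in AC CM libraries, against 21.6, 27.3 and 22.6 CPM in C CM libraries, at 0.24 (SE 0.11, adjusted p = 0.146). Cdc25c was the least abundant of the 47 genes per length, at 0.399 and 0.478 CPM per kb of exon in AC CM and C CM, and was at -0.26 (SE 0.26).

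Of 8 genes for Polo-like and Aurora kinases and their partners, only Plk1 passed. Plk1 (chromosome 7, 122159439 to 122169873, plus strand), the kinase that matures centrosomes and drives mitotic entry, had 10.1, 10.7 and 10.1 CPM in AC CM libraries, against 22.1, 16.8 and 16.7 CPM in C CM libraries. The AC CM libraries were nearly equal, and C CM replicate 1 was the highest of all. The log2 fold change was -0.84 (SE 0.13, adjusted p = 0.00193; 0.0718 without both AC CM replicate 2 and replicate 3), and its pseudogene Plk-ps1, at 93.5% identity, held 4.15% as many counts. Plk4, which duplicates centrioles, was at 0.22 (SE 0.14, adjusted p = 0.310).

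The Aurora kinase genes Aurka and Aurkb were at -0.18 (SE 0.13) and -0.21 (SE 0.13), and Tpx2, the spindle activator of Aurora A, at -0.10 (SE 0.12). The genes of the chromosomal passenger complex, which carries Aurora B, lay close to 0: Birc5 (survivin) was at -0.14 (SE 0.13), Cdca8 (borealin) at -0.18 (SE 0.11) and Incenp at 0.01 (SE 0.07). Incenp was the most abundant of the 47 genes per length, at 16.4 ± 0.826 CPM per kb in AC CM and 16.4 ± 0.308 CPM per kb in C CM (SD, n = 3 each). None of these passed, and a p that misses the threshold does not show that they were the same in both groups.

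**Figure D3:**
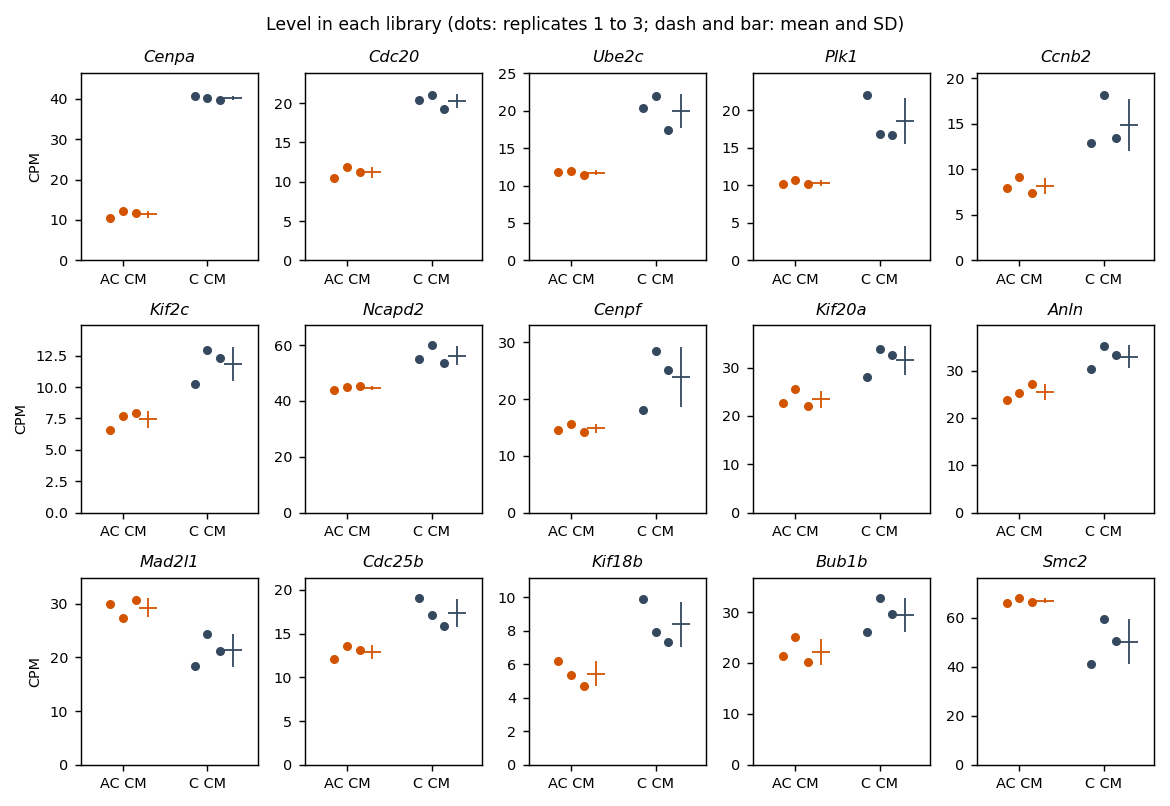
CPM in each library for the 15 genes that passed, AC CM replicates 1 to 3 at the left of each panel and C CM replicates 1 to 3 at the right, with the mean and SD (n = 3) as a dash and bar; axes start at 0. Cenpa has the widest gap (10.5 to 12.1 against 39.8 to 40.6 CPM), and Mad2l1 and Smc2 are the panels with AC CM above C CM.

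The spindle checkpoint genes were split. Bub1b, for the checkpoint kinase-like protein BubR1, had 21.4, 25.0 and 20.2 CPM in AC CM libraries, against 26.0, 32.7 and 29.6 CPM in C CM libraries. Mad2l1, for the Mad2 protein that holds Cdc20 inactive, had 29.9, 27.3 and 30.6 CPM in AC CM libraries, against 18.3, 24.3 and 21.1 CPM in C CM libraries. Each pair of groups was apart, in opposite directions. Bub1b was called at -0.41 (SE 0.12, adjusted p = 0.0338; 0.0141 to 0.127 when 1 library was left out) and Mad2l1 at 0.46 (SE 0.12, adjusted p = 0.0195; 0.0131 to 0.0737). The Bub1b call was lost without AC CM replicate 1 or 3 or C CM replicate 2 or 3, and the Mad2l1 call without AC CM replicate 1 or 3 or C CM replicate 3. Bub1, the checkpoint kinase that marks kinetochores, was at 0.39 (SE 0.17, adjusted p = 0.120). Ttk, the Mps1 kinase that starts checkpoint signalling, was at 0.25 (SE 0.19), and Bub3, the common partner of Bub1 and BubR1, at -0.14 (SE 0.08).

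All 6 genes grouped here as mitotic kinesins had log2 fold changes below 0, against 50.4% of all genes tested. Of the 6, 3 fell, 50% against 13.3% of all genes tested. The group does not hold every kinesin gene. Those of the other lists lay on both sides of 0, from Kifc1 at -0.73 (SE 0.14) to Kif20b at 0.28 (SE 0.14), which did not pass. Kif2c, a centromeric kinesin that takes microtubules apart, had 6.61, 7.69 and 7.95 CPM in AC CM libraries, against 10.3, 12.9 and 12.3 CPM in C CM libraries. Its groups did not overlap, and it was at -0.67 (SE 0.14, adjusted p = 0.00724; 0.0763 without both AC CM replicate 2 and replicate 3). Kif18b, which shortens astral microtubules, had 6.2, 5.37 and 4.72 CPM in AC CM libraries, against 9.88, 7.91 and 7.31 CPM in C CM libraries, at -0.62 (SE 0.17, adjusted p = 0.0243). Kif20a, which moves the passenger complex to the midzone, had 22.7, 25.5 and 22.1 CPM in AC CM libraries, against 28.1, 33.9 and 32.6 CPM in C CM libraries, at -0.43 (SE 0.10, adjusted p = 0.0158). Leaving out 1 library put the adjusted p at 0.0288 to 0.0957 for Kif18b, lost without AC CM replicate 2 or 3 or C CM replicate 1, and at 0.00447 to 0.0701 for Kif20a, lost without AC CM replicate 1 or 3 or C CM replicate 2 or 3. Kif20a overlaps Cdc23 on the opposite strand by 2315 bases, and Cdc23 was at 0.13 (adjusted p = 0.241). The chromokinesin Kif4 (-0.39, SE 0.15), the spindle motor Kif11 (-0.22, SE 0.12) and the midzone kinesin Kif23 (-0.17, SE 0.16) did not pass. Kif4 overlaps the more highly counted gene Pdzd11 on the opposite strand by 832 bases. Pdzd11 was higher after AC CM (0.42, adjusted p = 0.00697, quasi-likelihood test), and the effect of shared reads on Kif4 was not tested.

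Of 6 genes of the spindle midzone, spindle binding and cytokinesis, 1 passed. Anln, for anillin of the contractile ring, had 23.8, 25.3 and 27.2 CPM in AC CM libraries, against 30.4, 35.2 and 33.2 CPM in C CM libraries, at -0.38 (SE 0.09, adjusted p = 0.0174). The groups were apart, but the adjusted p was 0.00751 to 0.0731 when 1 library was left out, above 0.05 without AC CM replicate 1 or 2 or C CM replicate 2. Hmmr, a spindle protein, was at -0.45 (SE 0.16, adjusted p = 0.0612), with 10.6, 12.4 and 10.6 CPM in AC CM libraries, against 12.1, 17.8 and 16.1 CPM in C CM libraries. It has 5 pseudogene copies, of which the 4 with a row in the table held at most 0.567% as many counts, so its count too is uncertain. Hmmr passed in the authors' deposited table (adjusted p = 0.0469), which also called the 15 genes called here. The microtubule binder Nusap1 (-0.40, SE 0.19), the midzone bundler Prc1 (-0.33, SE 0.18), the centralspindlin subunit Racgap1 (-0.30, SE 0.12) and the RhoA activator Ect2 (0.02, SE 0.16) did not pass.

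Of 5 genes for condensin, which compacts chromosomes, and topoisomerase, 1 fell, 1 rose and 3 did not pass. Ncapd2, a regulatory subunit of condensin I, had 43.9, 44.9 and 45.4 CPM in AC CM libraries, against 54.9, 60.1 and 53.7 CPM in C CM libraries, and fell by 0.33 on the log2 scale (SE 0.07, adjusted p = 0.0106; at most 0.0476 when 1 library was left out, and 0.215 without both AC CM replicate 2 and replicate 3). Smc2, the core ATPase subunit shared by both condensins, had 66.2, 68.2 and 66.7 CPM in AC CM libraries, against 41.1, 59.5 and 50.5 CPM in C CM libraries, at 0.41 (SE 0.12, adjusted p = 0.0349; 0.00974 to 0.101). AC CM libraries were tight and above a widely spread C CM group, and the Smc2 call was lost without any of the AC CM replicates or without C CM replicate 3. Its partner Smc4 was at 0.27 (SE 0.10, adjusted p = 0.0865) with groups apart, and Ncapg, another condensin I subunit, at -0.20 (SE 0.17).

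Top2a, which untangles sister chromatids, had 120, 126 and 120 CPM in AC CM libraries, against 103, 146 and 119 CPM in C CM libraries. Mki67, the Ki-67 antigen of dividing cells, had 140, 147 and 135 CPM in AC CM libraries, against 119, 169 and 142 CPM in C CM libraries. In both genes the AC CM libraries lay inside the C CM range. Foxm1, the transcription factor of late cell cycle genes, was at -0.22 (SE 0.17, adjusted p = 0.371), with 12.8, 18.1 and 11.5 CPM in AC CM libraries, against 15.4, 16.9 and 17.3 CPM in C CM libraries.

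**Figure D4:**
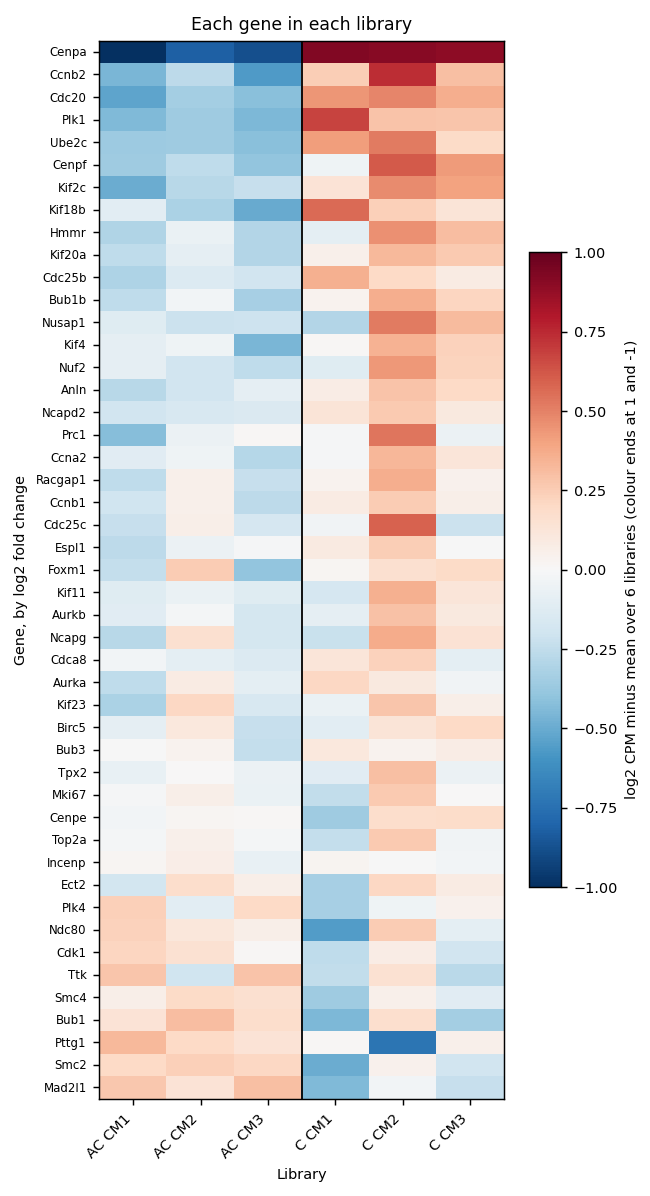
Each of the 47 genes (rows, ordered by log2 fold change) in each library, AC CM left and C CM right, as log2 CPM minus the mean over the 6 libraries. The top rows are lower in AC CM in every library, and the middle rows show C CM replicate 2 as the highest C CM library, as it was for 35 genes.

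Leaving out 1 library kept 8 of the 13 falls called in every such fit: Cenpa, Cdc20, Ube2c, Plk1, Ccnb2, Kif2c, Ncapd2 and Cenpf. Neither of the 2 rises was kept in all of them. The count of genes that fell was 9 to 18 over those fits and that of genes that rose 0 to 4, while the number called over all genes tested varied too. When AC CM replicate 2 and AC CM replicate 3, which held the most albumin transcripts, were both dropped, Cenpa and Cdc20 were still called. The other 13 called genes kept their sign, with adjusted p between 0.0718 (Plk1) and 0.401 (Kif18b), and the median log2 fold change of the 47 genes was -0.34. That fit has 1 AC CM library and assumes that it varies like the C CM libraries.

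Other mitosis genes, 116 in number and taken from 5 lists of further subunits and regulators, were also measured. Of these, 14 were called higher and 10 lower, 12.1% and 8.62% against 13.3% each way of all genes, with a median log2 fold change of 0.09. Their difference from the 47 genes was not tested. The counts were 7 to 9 higher without AC CM replicate 1, 2 or 3 and 5 lower without AC CM replicate 3. The number called among all genes tested also changed between fits. It was lowest without both AC CM replicate 2 and replicate 3, a fit with 1 AC CM library.

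Kinetochore genes of these lists were called higher in 7 of 34 cases, 20.6% against 13.3% of all genes, and lower in 0 (3 at an unadjusted p under 0.05, and 0 by DESeq2). Spdl1, which recruits dynein to kinetochores, was at 0.85 (SE 0.12, adjusted p = 0.00122; 26.0 ± 0.509 CPM in AC CM and 14.4 ± 2.25 CPM in C CM, SD, n = 3 each). Kntc1 (0.59, SE 0.11) and Zwilch (0.69, SE 0.13), of its partner complex, and Spc25 of the Ndc80 complex (0.78, SE 0.15) rose too. Zw10 of that partner complex (0.21, SE 0.09, adjusted p = 0.13) did not pass. Neither did Spc24 of the Ndc80 complex, which lay below 0 (-0.42, SE 0.17, adjusted p = 0.101). The adjusted p without both AC CM replicate 2 and replicate 3 was 0.0436 for Spdl1, 0.107 for Kntc1, 0.122 for Zwilch and 0.0933 for Spc25. Genes of the spindle, centrosome and cytokinesis were called lower in 5 of 31 cases, 16.1% and near the 13.3% of all genes, and higher in 0 (3 at an unadjusted p under 0.05, and 0 by DESeq2). Among the 5 were the kinesin Kifc1 at -0.73 (SE 0.14) and the spindle pole gene Aspm at -0.66 (SE 0.13; adjusted p = 0.202 without both AC CM replicate 2 and replicate 3). The chromokinesin Kif22 (-0.46, adjusted p = 0.0122) was lost without AC CM replicate 1 or 3 (at most 0.0517), and Pimreg (-0.78, adjusted p = 0.0125) without AC CM replicate 3 (0.052).

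Of 15 genes that control Cdk1, 2 were called higher and 3 lower, 13.3% and 20% against 13.3% each way of all genes. Wee1, the kinase that inhibits Cdk1, rose by 0.90 (SE 0.10, adjusted p = 2.49e-04) to 25.2 ± 1.53 CPM in AC CM, against 13.5 ± 0.490 CPM in C CM. Cdc25a, the phosphatase that opposes it, rose by 0.61 (SE 0.10). Cks2, a small Cdk-binding subunit, fell by 0.92 (SE 0.15, adjusted p = 0.002). The adjusted p without both AC CM replicate 2 and replicate 3 was 0.0236 for Wee1, 0.0791 for Cdc25a and 0.0668 for Cks2. Gtse1, a microtubule-binding protein of G2, was called at -0.46 (adjusted p = 0.0342), but only 1 of 6 fits without 1 library kept the call (adjusted p of 0.0264 to 0.124). Of 20 genes of the anaphase-promoting complex and its inhibitors, Fzr1, the activator that takes over from Cdc20, was at -0.39 (SE 0.08, adjusted p = 0.00962; 0.191 without both AC CM replicate 2 and replicate 3). Fbxo5, for the inhibitor Emi1, was called at 0.35 (adjusted p = 0.0382; 0.0475 to 0.116 without 1 library) and the scaffold subunit gene Anapc1 at 0.22 (adjusted p = 0.0471; 0.0278 to 0.162). Of those fits 5 of 6 lost Fbxo5 and 4 of 6 lost Anapc1, while Cdc27, another subunit gene, was at 0.30 (adjusted p = 0.0509). Of 16 further condensin and cohesin genes 3 were called higher and 1 lower, 18.8% and 6.25% against 13.3% each way of all genes. The lower gene was the condensin II gene Ncapg2 at -0.59 (SE 0.09), and at -0.55 without both AC CM replicate 2 and replicate 3. The risers were the cohesin genes Stag1 (0.40), Smc1a (0.28) and Smc3 (0.26). Their adjusted p reached 0.0937, 0.124 and 0.141 in fits without 1 library.

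Regulators that act through the CHR motif were also measured, in a list that holds E2F and DP factors too. Its 12 genes cover the MuvB complex, its pocket proteins, the B-Myb family and those factors. In this list 5 were called higher and 1 lower, 41.7% and 8.33% against 13.3% each way of all genes, and 6 did not pass. Among the 5, E2f5 (0.37) and Mybl1 (0.67) lost their call in 4 and 5 of the 6 fits without 1 library. Mybl2, the gene of B-Myb itself, did not pass (0.40, SE 0.15, adjusted p = 0.0832, quasi-likelihood test). Lin54, the MuvB subunit that binds the motif, rose by 0.77 (SE 0.17, adjusted p = 0.00931). Rbl1, for the pocket protein p107, rose by 0.67 (SE 0.08, adjusted p = 4.28e-04), while Rbl2, for p130, fell by 0.47 (SE 0.09, adjusted p = 0.00638; 0.138 without both AC CM replicate 2 and replicate 3). Lin52, another MuvB subunit, was called at 0.50 (adjusted p = 0.0184), and at most 0.0751 when 1 library was left out, lost without AC CM replicate 1 or 3.

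DNA replication genes give the contrast within the cell cycle. Of 49 such genes 36 were called higher and 0 lower (0 at an unadjusted p under 0.05, and 0 by DESeq2), the risers being 73.5% against 13.3% of all genes, with a median log2 fold change of 0.67. The 4 with the smallest p were genes of the replicative helicase, with Mcm2 at 1.38 (SE 0.07), Mcm6 at 1.29 (SE 0.06), Mcm3 at 1.12 (SE 0.07) and Mcm4 at 0.91 (SE 0.07). Mcm3 had 111 ± 4.48 CPM in AC CM and 50.9 ± 3.28 CPM in C CM (SD, n = 3 each). The summed level of all 49 replication genes was 2543 to 2702 CPM in AC CM libraries and 1548 to 1715 CPM in C CM libraries, with no overlap. Without both AC CM replicate 2 and replicate 3, 18 were called higher. Of 18 genes of G1 and S phase entry 8 were called higher and 3 lower, 44.4% and 16.7% against 13.3% each way of all genes. The cyclin D1 gene Ccnd1 was at 2.59 (SE 0.08) and the kinase gene Cdk6 at 1.24 (SE 0.10). The transcription factor gene E2f3 was at 0.72 (SE 0.08) and the inhibitor gene Cdkn1b at -0.80 (SE 0.09). The difference between the replication and mitosis lists was not tested.

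**Figure D5:**
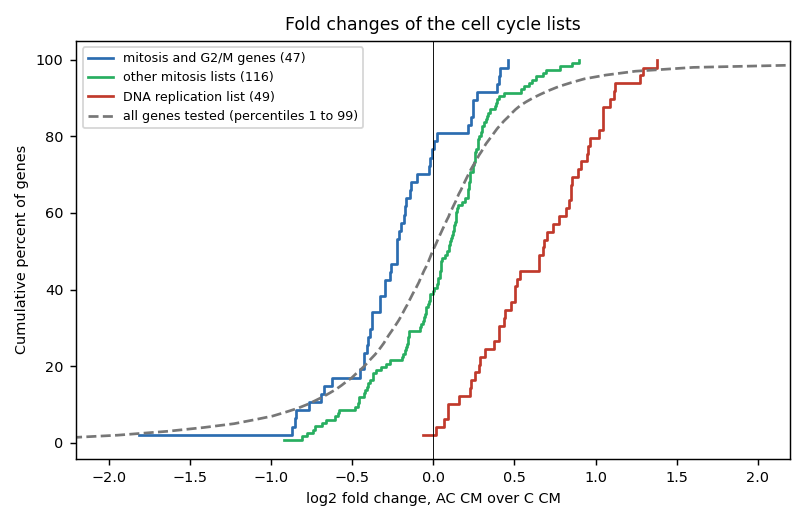
Cumulative percent of genes by log2 fold change, AC CM over C CM, for the 47 mitosis and G2/M genes, 116 other mitosis genes, 49 DNA replication genes and all genes tested (dashed). The mitosis curve lies left of the dashed line over most of its length (median -0.22), and the replication curve lies right of it (median 0.67).

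Markers of other marrow cells, some of which divide as precursors, were lower after AC CM beside these genes. Over all genes tested, 13.3% were called lower and 13.3% higher. All 13 genes of granulocytes and their precursors were called lower, with Ngp at -2.57, S100a9 at -2.51 and Ltf at -2.16. Their summed level was 199 to 215 CPM in AC CM libraries and 937 to 1083 CPM in C CM libraries. Of 5 monocyte genes 4 were called lower, with sums of 226 to 267 CPM in AC CM and 604 to 751 CPM in C CM, among them Ccr2 (-1.62), F13a1 (-1.66) and Plac8 (-0.86). Dendritic cell markers were called lower in 5 of 6 tested (13.6 to 14.9 CPM in AC CM, 51.4 to 64.4 CPM in C CM; Itgax -1.94, Ccr7 -4.58, Siglech -2.46) and lymphocyte markers in 5 of 5 tested (9.61 to 9.89 CPM in AC CM, 25.0 to 30.9 CPM in C CM; Cd79b -1.24, Nkg7 -2.30, Cd79a -3.81). Of erythroid markers 0 of 5 tested passed, with 1 at an unadjusted p under 0.05 and 0 by DESeq2 (7.49 to 10.05 CPM in AC CM, 9.11 to 12.1 CPM in C CM). Chondrocyte markers, of which Col11a1 (0.81) of 6 tested was called higher, summed to 108 to 111 CPM in AC CM and 72.1 to 84.1 CPM in C CM, with Cnmd at 0 in every library. Liver markers, of which 9 of 10 had log2 fold changes above 0 with a median over the 10 of 5.05, summed to 353 to 1763 CPM in AC CM and 516 to 596 CPM in C CM. Of them only Trf (-0.60), the transferrin gene, was called, and DESeq2 called 4 higher and 1 lower. The part of these cells in the change of the mitosis genes was not tested.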

How the data were processed

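The members of the list, the other gene lists and the tests were chosen with earlier results of these data known. Libraries were made from RNA with an mRNA kit, per the labels' protocols. Strand is not mentioned there, so genes that overlap on opposite strands may share reads. The authors deposited whole-number counts per gene, without normalization, and normalized signal columns, which equal the counts times a constant per sample and were not used. The log2 fold changes and p-values in the authors' deposited table are their own comparison and were only read. Per the submitters' processing notes, the tools were R 3.4.3, DESeq2 1.18.1, HISAT2 2.1.0 and fastp 0.17.1, in roles that are not stated. The counter, its settings, the build and the annotation: not given in the sources used here. Of the gene identifiers found in GENCODE M21 (GRCm38), 95.2% had the same coordinates there, and the coordinates given are those of the deposited table.

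The 17863 genes kept by filterByExpr entered edgeR 4.0.16 (R 4.3.3), with TMM scaling, robust quasi-likelihood fits on group alone, and p-values adjusted by Benjamini-Hochberg. DESeq2 1.42.0 and limma-voom (limma 3.58.1), other scalings and filters, a replicate block, counts divided by 4, and fits without single libraries or without both AC CM replicate 2 and replicate 3 were alternatives. The counts divided by 4 were tried because 696 to 814 genes per library had a count of 4 but 394 to 446 a count of 3. Values after ± are SD. CPM per kb use exon lengths of GENCODE M21. Pseudogene copies are transcripts of at least 90% identity over 300 bases (BLAST 2.17.0). No replicate was a copy of another (chi-square per gene 27.2 to 63.2). All 47 genes are accounted for by role, with full values for those called. From each further list the 4 genes with the smallest p are named, and from each marker list up to 3 called genes. The CENP-A loading genes, E2f5, Mybl1, Mybl2, Pcna, Kif20b, Zw10 and Spc24 were added after their values were seen. Results for some listed genes are not reported here. Simulated data served to test the fits. Figures were drawn with matplotlib 3.10.9, and tables with pandas 2.3.3 and numpy 2.4.6 in Python 3.11.15.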

Additional observations from a re-analysis of the deposited data

How the results depend on the processing

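Over all alternatives the median log2 fold change of the 47 mitosis genes stayed below 0, between -0.34 and -0.15, while that of all genes tested was between -0.03 and 0.01. DESeq2, limma-voom, other scalings, other filters and counts divided by 4 gave 13 or 14 mitosis genes lower and 2 higher. Leaving out 1 library gave 9 to 18 lower and 0 to 4 higher, with 3158 to 5023 genes called in all against 4741. The same fits gave 5 to 12 lower and 7 to 15 higher among the other mitosis genes, and 31 to 38 higher among the replication genes. Without both AC CM replicate 2 and replicate 3 there were 2 lower and 0 higher mitosis genes, 1 lower and 2 higher other mitosis genes, 18 higher replication genes and 1274 genes called, in a fit with 1 AC CM library. Same-numbered samples did not deviate together (correlations of -0.11 to -0.02), so the numbers were not taken as pairs. The replicate block gave 15 lower and 3 higher mitosis genes and 4397 genes called.

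Changes of sign occurred only among 7 of the 47 genes, none of which passed. Over the fits without 1 library the log2 fold change was -0.42 to 0.014 for Cdc25c, -0.0253 to 0.0461 for Incenp, -0.17 to 0.041 for Tpx2, -0.18 to 0.066 for Cenpe, -0.12 to 0.14 for Ect2, -0.12 to 0.14 for Top2a and -0.14 to 0.11 for Mki67. Incenp was at -0.0171 with upper-quartile scaling, -0.0017 with library totals and -0.0027 with at least 1 CPM in 3 samples. Top2a was at 0.0049 with limma-voom and 0.0055 with the replicate block. Ect2 was at -0.19 without both AC CM replicate 2 and replicate 3. The cause of these changes was not tested. Cdc25c, the gene with the fewest counts of the 47, had the largest SE (0.26).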
